A study of Rattus norvegicus with 24 samples.

Results

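A set of 10 heat shock genes was followed in rat kidney after ischemia and reperfusion, the interruption and return of blood flow. The genes were Cryab, Hspb1, Hspb8, Hspa1a, Hspa1b, Dnajb1, Hsph1, Bag3, Hspd1 and Zfand2a, chosen by symbol in the array's probe annotation, which pairs single symbols with probes for 13337 genes. Of the 10 members, 9 had a probe, 1 each, and Hspa1a had none. Of those 9, 7 passed the filter on dim probes. The probe of Hspa1b and that of Hsph1 were not above background on any of the 24 arrays, so these genes have no measured change here.

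The RNA came from renal cortex and renal medulla of Wistar rats aged 3 months and was hybridised to Illumina bead arrays. Injured rats had undergone bilateral renal ischemia of 20 min, with reperfusion for 6 h, 24 h or 120 h, and the control rats were labelled sham, with no time after the operation given. Each region therefore had 4 groups, and each of the 8 groups held 3 arrays. The labels number the replicates without saying that each number is a separate animal, so a p-value here speaks only of how far these samples scatter, and that scatter can be technical.

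Heat shock proteins are chaperones that keep damaged proteins from clumping, refold them or pass them on for breakdown. Many of their genes are switched on by heat shock factor 1, which binds inverted repeats of a short unit called the heat shock element in their promoters. In the kidney these proteins are known both from ischemic injury and from the medulla, whose cells live in a hyperosmotic surrounding.

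Values are normalized log2 intensities, so 1 unit is a doubling of signal, and differences carry their standard error (SE). A change was called where the p-value of limma, adjusted by the Benjamini-Hochberg method over 14390 probes, was under 0.05. In cortex at 6 h, 4 of the 7 tested members were higher than in sham, namely Cryab, Hspb1, Zfand2a and Hspb8, and none was lower. Over all probes tested in that comparison, 8.87% were higher and 10.8% were lower. The median difference of the 7 members was 0.76, against 0.04 for all probes. In medulla at 6 h, Hspb1, Zfand2a and Cryab were higher, 3 of 7, where 17.3% of all probes were higher and 16.6% were lower. The members' median there was 0.59, against 0.04 for all probes.

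At 24 h in cortex, Cryab and Hspb8 were higher and Bag3 was lower, where 12.6% of all probes were higher and 13.6% were lower. At 24 h in medulla limma called 0 of 7 members, against 17.2% of probes higher and 15.5% lower, and 2 members had an unadjusted p under 0.05. At 120 h limma called 0 of 7 members in cortex, where 2.45% of probes were higher and 3.2% were lower, and 1 member had an unadjusted p under 0.05. At 120 h in medulla the count was 0 as well, with 7.69% of probes higher and 6.88% lower, and no member had an unadjusted p under 0.05.

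**Figure D1:**
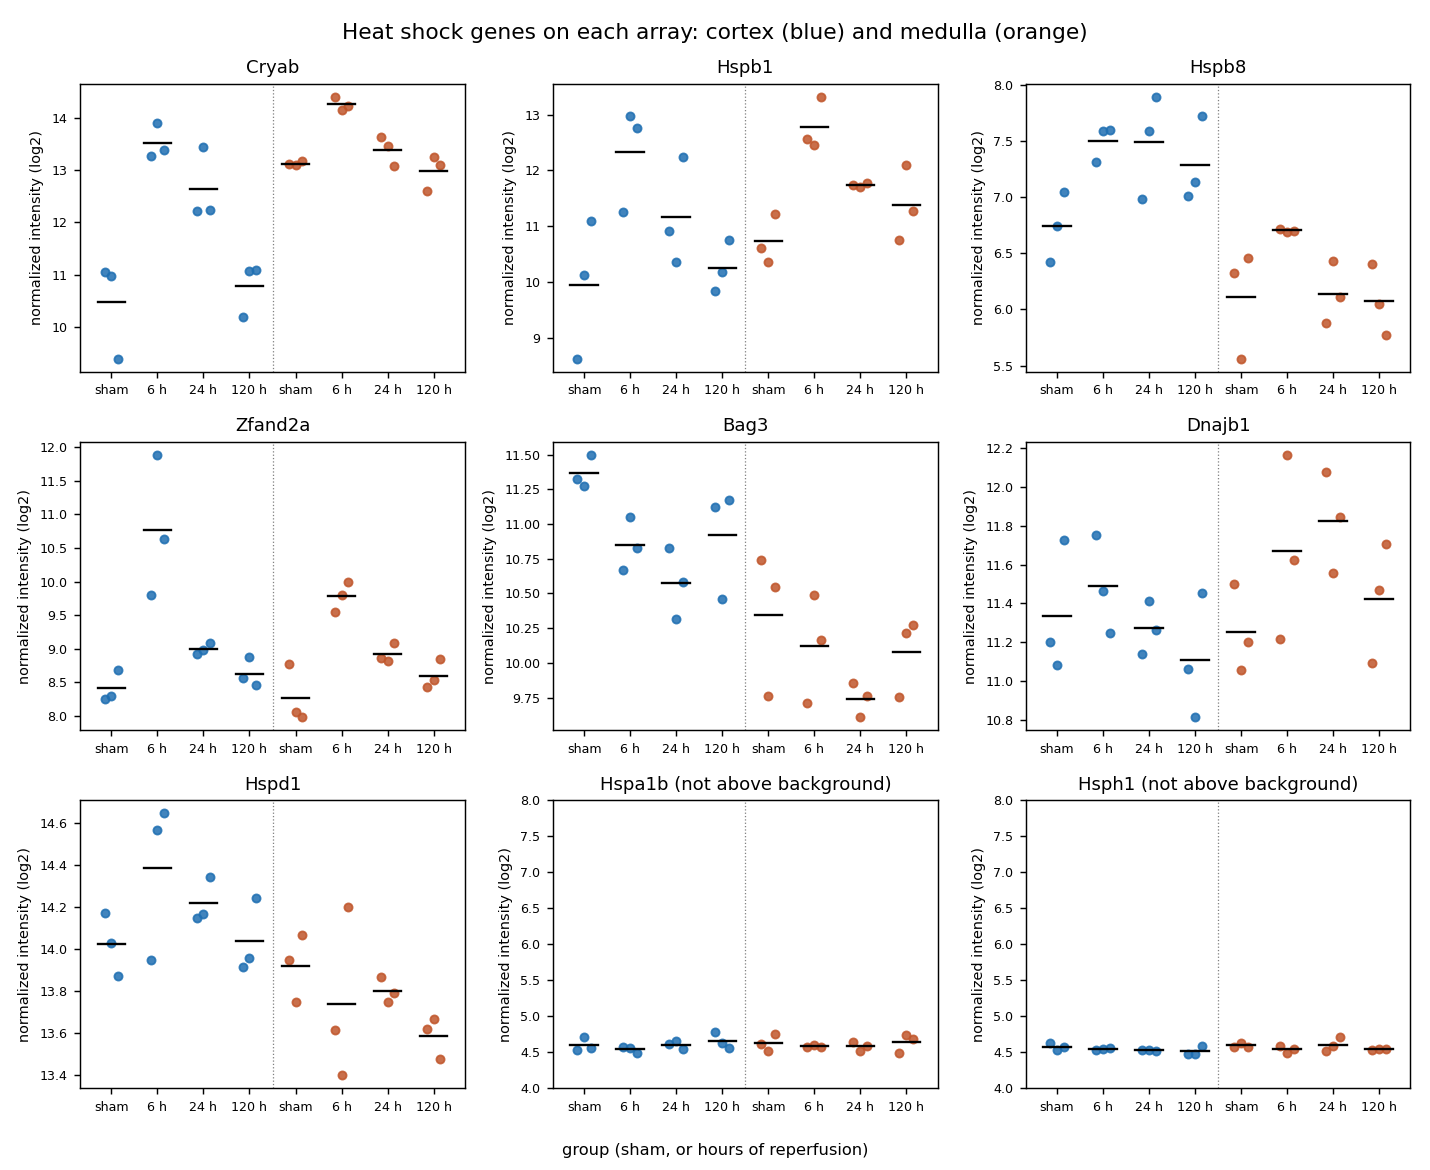
Normalized intensity (log2, vertical axis) of the 9 heat shock genes with a probe on each of 24 arrays, in the 4 cortex groups (blue) and the 4 medulla groups (orange), with the sham group first and then 6, 24 and 120 h of reperfusion. Points are arrays and black bars are group means of 3 arrays. Cryab in cortex lies between 13.28 and 13.91 at 6 h, above the sham arrays at 9.40 to 11.06, whereas Hspa1b and Hsph1 stay at background, and the vertical scales differ between panels.

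Region markers separated the arrays only in part. Slc34a1, the phosphate transporter of proximal tubules, read 13.43 to 13.79 in sham cortex, and 13.52, 11.28 and 12.60 on the sham medulla arrays, so that sham medulla array 1 lay within the cortex range. Umod, made by the thick ascending limb, read 14.32 to 14.52 in sham medulla and 13.11 to 14.34 in sham cortex, where array 1 overlapped the medulla. Aqp2, the water channel of collecting ducts, read 10.17, 10.22 and 12.16 in sham medulla against 9.82 to 10.81 in sham cortex, an overlap of both lower medulla arrays. It read 9.82 to 11.82 in medulla at 6 h, 10.05 to 12.56 at 24 h and 12.70 to 13.59 at 120 h. Of 9 collecting duct markers, 0 were called between the sham regions, with a median difference of -0.16. The mean of 11 proximal tubule markers on sham medulla array 1 was 12.29, close to the sham cortex range of 12.34 to 12.65. Calls of members and other chaperone genes against sham medulla that ended without that array are named, or counted by list, where they are given. Median intensity per array ran from 67.3 to 98.1, between 49.6% and 56.4% of probes per array were detected, and no arrays held identical values.

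The promoters of members that moved, and of some that did not, are shown first, since many heat shock genes share the heat shock element. The sequence is from RefSeq with the build GRCr8 and was searched in the 250 bases before the start that the promoter table gives for each gene. For Hspb8 and Hspd1 that start, and the whole window, lie inside the annotated span of the gene, and the last bases of the Zfand2a window do too, so these 3 windows may overlap transcribed sequence. A pair of units was spelled GAANNTTC or TTCNNGAA, each of which reads the same on both strands. A triple was spelled GAANNTTCNNGAA or TTCNNGAANNTTC, each the reverse complement of the other, and a triple contains 1 pair of each kind. Capitals mark these letters. The promoter table held 8 of the 10 members, without Cryab and Hspa1b.

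The windows of Hspb1 and Zfand2a are shown because these genes rose in both regions at 6 h, and that of Bag3 because it was lower in cortex at 24 h. They lie at chr12:26432302-26432551 on the minus strand, chr12:20275200-20275434 on the plus strand and chr1:192533210-192533459 on the plus strand. The Zfand2a window is cut to the 235 bases before the annotated gene. Stretches of 30 bases around the capitals follow for Hspb8, which rose in cortex, for Hspd1, which was not called, and for Hsph1, which was not above background. These lie at chr12:45837274-45837303 on the plus strand, chr9:64084256-64084285 on the minus strand and chr12:10427324-10427353 on the plus strand.
Hspb1: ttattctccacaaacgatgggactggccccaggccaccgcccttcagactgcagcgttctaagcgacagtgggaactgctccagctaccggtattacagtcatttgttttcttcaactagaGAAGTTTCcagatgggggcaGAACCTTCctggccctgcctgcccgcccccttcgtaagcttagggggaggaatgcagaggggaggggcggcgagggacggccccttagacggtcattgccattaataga
Zfand2a: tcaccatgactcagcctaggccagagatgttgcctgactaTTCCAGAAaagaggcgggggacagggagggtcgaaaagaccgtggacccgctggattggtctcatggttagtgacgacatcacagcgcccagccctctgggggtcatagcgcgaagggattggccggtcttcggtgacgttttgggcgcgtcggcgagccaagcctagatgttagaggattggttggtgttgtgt
Bag3: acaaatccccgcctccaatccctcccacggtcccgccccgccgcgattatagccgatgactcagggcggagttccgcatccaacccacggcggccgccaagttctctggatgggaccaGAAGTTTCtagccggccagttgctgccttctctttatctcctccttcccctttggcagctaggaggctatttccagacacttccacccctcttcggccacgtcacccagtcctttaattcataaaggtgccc
Hspb8: agaagccaggaGAAGTTTCtaggcgcgtga
Hspd1: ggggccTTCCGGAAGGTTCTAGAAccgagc
Hsph1: gccgcagaTTCTGGAAAGTTCtcctcagta

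At least 1 pair was found for 7 of the 8 members with a window, the exception being Hspa1a, and 13.5% of all 33469 promoter windows of that length held a pair. The annotated span of Hspa1a, chr20:3859756-3863800, is longer than that of Hspa1b, chr20:3875411-3877866. Its window lies before the start of that span, and a pair further in would be missed. Hspb1 held 2 pairs and Zfand2a, Hspb8, Bag3 and Dnajb1 held 1 each. A triple was found in Hspd1 and Hsph1, 2 of 8, against 0.663% of all windows. A match describes letters and does not show that a factor binds there.

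Cryab encodes alpha B-crystallin, a small heat shock protein that holds unfolding proteins and stabilises the cytoskeleton, and lies at chr8:59989885-59995532 in GRCr8. In sham cortex its 3 arrays read 11.06, 10.98 and 9.40. At 6 h the cortex read 13.28, 13.91 and 13.39, and at 24 h it read 12.21, 13.43 and 12.25. All 6 of these injured arrays lay above all 3 sham arrays. At 120 h the cortex values of 10.18, 11.08 and 11.10 overlapped sham.

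In cortex Cryab rose 8.26-fold at 6 h, a log2 difference of 3.05 ± 0.38 (SE, n = 3 and 3, limma adjusted p = 4.49e-05), and ranked 13 from the top of 14390 probes by difference. At 24 h it was 4.44-fold above sham, a difference of 2.15 ± 0.38 (adjusted p = 0.000413). By 120 h the difference was 0.31 (95% interval -0.48 to 1.10, adjusted p = 0.727). Between 24 h and 120 h the cortex level fell by 1.84 ± 0.38 (adjusted p = 0.0114), with groups that did not overlap. That last call was lost without array 2 of cortex at 24 h (-1.44, adjusted p = 0.0911) or without array 1 of cortex at 120 h (-1.54, adjusted p = 0.0699).

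In medulla Cryab was already high in sham, at 13.11, 13.09 and 13.16. At 6 h the medulla read 14.40, 14.15 and 14.23, at 24 h it read 13.63, 13.47 and 13.08, and at 120 h it read 12.59, 13.24 and 13.10. The 6 h arrays lay above every other array of the series for this gene, and the later groups overlapped sham medulla. The 6 h rise was 2.20-fold, 1.14 ± 0.38 (adjusted p = 0.0253). The call was lost without sham medulla array 1 (1.13, adjusted p = 0.0631), array 2 (1.12, 0.0564) or array 3 (1.16, 0.0514), and without 6 h medulla array 1 (1.07, 0.0702) or array 3 (1.15, 0.056). An array at 6 h lay within 0.5 of the highest value on the normalized scale, 14.78, where signal can be compressed.

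Between the sham regions, Cryab was 6.25-fold higher in medulla, by 2.64 ± 0.38 (adjusted p = 0.00196). With it, Bag3 was the other called member of 7, being lower in medulla, against 0.438% of all probes higher and 0.952% lower. The Cryab call was lost when only the 2 sham groups were fitted, with the same difference (adjusted p = 0.222). By mean level the order of groups was medulla at 6 h, cortex at 6 h, medulla at 24 h, sham medulla, medulla at 120 h, cortex at 24 h, cortex at 120 h and sham cortex. The first group stood clear of the next, and the last 2 stood clear of the others but overlapped each other. Neighbours from cortex at 6 h down to cortex at 24 h overlapped.

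The medulla response of Cryab minus the cortex response was -1.91 ± 0.53 at 6 h (adjusted p = 0.148) and -1.88 ± 0.53 at 24 h (adjusted p = 0.176), and neither passed the test. For the difference between responses limma called 0 of 7 members at 6 h, 24 h and 120 h, where it called 0.202%, 0.0556% and 0.0139% of all probes. Unadjusted p was under 0.05 for 1 member at 6 h, 1 at 24 h and 0 at 120 h.

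Hspb1 encodes HSP27, a small heat shock protein that binds actin filaments as well as unfolding proteins, at chr12:26430640-26432301. In sham cortex the arrays were far apart, at 8.64, 10.14 and 11.10, and at 6 h they read 11.26, 12.98 and 12.75. At 24 h the cortex read 10.91, 10.37 and 12.25 and at 120 h 9.84, 10.19 and 10.75. The 6 h arrays all exceeded sham, the lowest by a narrow margin, and the later groups overlapped sham.

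The cortex rise of Hspb1 at 6 h was 5.18-fold, 2.37 ± 0.56 (adjusted p = 0.00588), rank 39 of 14390. It did not pass when only the 2 groups compared were fitted (adjusted p = 0.0936). At 24 h the difference was 1.22 (95% interval 0.05 to 2.38, adjusted p = 0.118). It passed without sham cortex array 3 (1.79, adjusted p = 0.029) and was 0.56 without sham cortex array 1 (adjusted p = 0.539).

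In medulla Hspb1 read 10.61, 10.37 and 11.23 in sham and 12.56, 12.46 and 13.32 at 6 h. It read 11.75, 11.70 and 11.77 at 24 h and 10.76, 12.09 and 11.28 at 120 h. The groups at 6 h and 24 h lay wholly above sham, and that at 120 h overlapped it. The 6 h rise was 4.13-fold, 2.05 ± 0.56 (adjusted p = 0.00828), and it passed in each of the 34 alternatives. At 24 h the difference of 1.01 did not pass (adjusted p = 0.181), but it passed when only the groups compared were fitted (adjusted p = 0.0214). The sham regions differed by 0.78 (95% interval -0.39 to 1.94, adjusted p = 0.711), and the 6 h responses of the regions differed by -0.33 (95% interval -1.98 to 1.32, adjusted p = 0.949).

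Hspb8 encodes HSP22, the small heat shock protein that works with Bag3 to send damaged proteins to autophagy. It was the dimmest tested member, with a median intensity of 151.4 before normalization. In cortex it read 6.42, 6.75 and 7.05 in sham, 7.31, 7.59 and 7.60 at 6 h, 6.98, 7.59 and 7.89 at 24 h, and 7.01, 7.14 and 7.72 at 120 h. The 6 h arrays lay above sham, and array 1 of each later group fell below the highest sham array.

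Hspb8 was 1.69-fold higher in cortex at 6 h, 0.76 ± 0.26 (adjusted p = 0.0471), and 1.68-fold higher at 24 h, 0.75 ± 0.26 (adjusted p = 0.0408). The 6 h call was lost without sham cortex array 1 (0.60, adjusted p = 0.196) or array 2 (0.76, 0.093). It was also lost without 6 h cortex array 1 (0.85, adjusted p = 0.06), array 2 (0.71, 0.153) or array 3 (0.71, 0.0845). Leaving out any of 7 arrays of groups outside the comparison ended it too, the difference staying at 0.76. The 7 were medulla 6 h arrays 1, 2 and 3 and array 2 of cortex at 24 h, together with medulla 24 h array 3, cortex 120 h array 2 and medulla 120 h array 2. Median scaling (0.56, adjusted p = 0.191), array weights (0.69, 0.102), no filter on dim probes (0.0722) and a fit of only the groups compared (0.076) ended it as well. The 24 h call was lost without sham cortex array 1 (0.59, adjusted p = 0.175) or array 2 (0.75, 0.0816), and without 24 h cortex array 2 (0.70, 0.114) or array 3 (0.54, 0.19). The same 4 settings ended it, at adjusted p of 0.0516, 0.0864, 0.0638 and 0.0852 in that order.

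In medulla Hspb8 read 6.33, 5.56 and 6.46 in sham and 6.72, 6.69 and 6.70 at 6 h, with no overlap. The difference of 0.59 did not pass (adjusted p = 0.0898). The medulla arrays at 24 h read 5.88, 6.43 and 6.11, and those at 120 h read 6.41, 6.05 and 5.77. Both groups overlapped sham.

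Zfand2a encodes AIRAP, a zinc finger protein first known from cells treated with arsenite, where it acts with the proteasome, and lies at chr12:20275435-20286513. In sham cortex it read 8.26, 8.29 and 8.69, and at 6 h 9.80, 11.88 and 10.64. At 24 h the cortex read 8.91, 8.98 and 9.08 and at 120 h 8.56, 8.87 and 8.46. The 6 h arrays were all above sham but far apart. The 24 h arrays sat just above sham without overlap, and those at 120 h overlapped it.

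The cortex rise of Zfand2a at 6 h was 5.13-fold, 2.36 ± 0.33 (adjusted p = 0.000123), rank 41 of 14390. From 6 h to 24 h it fell by 1.78 ± 0.33 (adjusted p = 0.00488), the called member of 7 in that comparison, where 1.31% of probes were higher and 0.195% lower at 24 h. This fall did not pass when only the groups compared were fitted (adjusted p = 0.314). At 24 h Zfand2a was 0.58 above sham (adjusted p = 0.223), which passed when only the groups compared were fitted (adjusted p = 0.0353). Cryab was the called member of 7 in the next step in cortex, from 24 h to 120 h, in which 0.89% of probes were higher and 1.45% lower.

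In medulla Zfand2a read 8.78, 8.05 and 7.98 in sham and 9.55, 9.80 and 10 at 6 h. It read 8.86, 8.82 and 9.09 at 24 h and 8.43, 8.53 and 8.84 at 120 h. The 6 h arrays stood clear of every other medulla array. The rise was 2.85-fold, 1.51 ± 0.33 (adjusted p = 0.00199). The fall from 6 h to 24 h, 0.86, was not called (log2 difference -0.86, adjusted p = 0.296). In the medulla steps limma called 0 of 7 members from 6 h to 24 h, against 1.4% of probes, and 3 members had an unadjusted p under 0.05. From 24 h to 120 h it called 0 of 7, against 3.91% of probes, with 0 at an unadjusted p under 0.05.

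**Figure D2:**
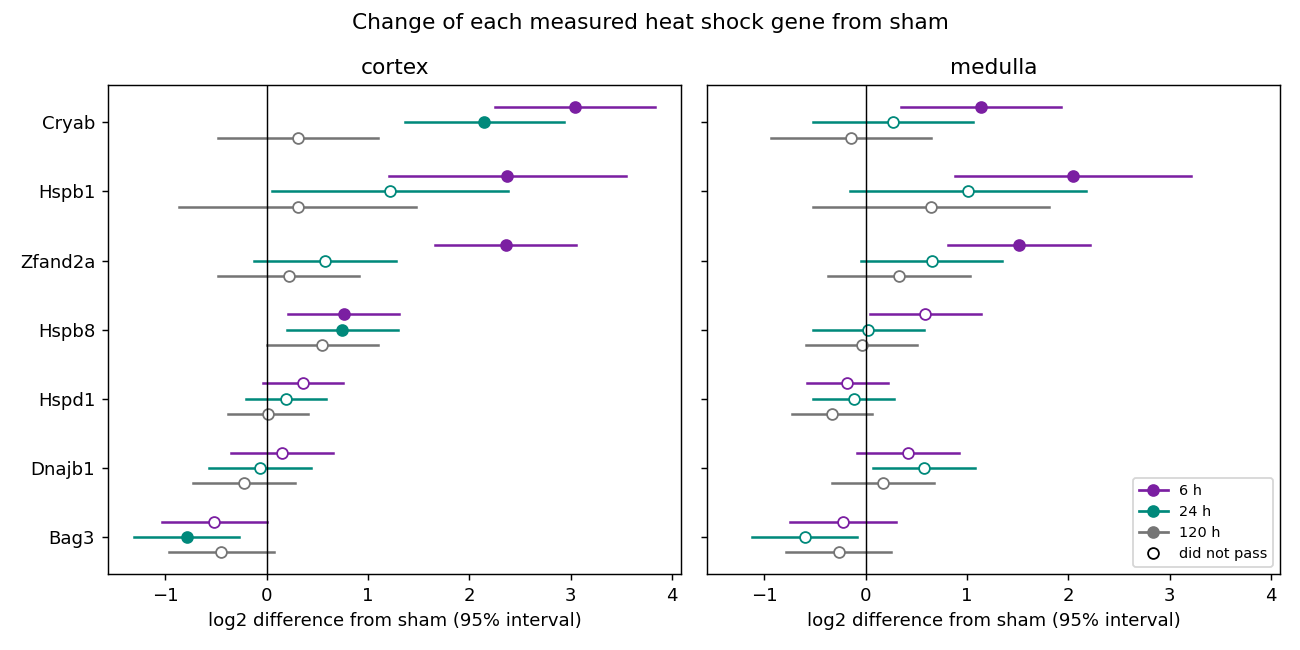
Log2 difference from sham (horizontal axis) of the 7 tested heat shock genes in cortex and medulla at 6, 24 and 120 h, with 95% intervals from limma. Filled points passed the adjusted p threshold of 0.05 and open points did not. Cryab in cortex has the largest difference, 3.05 at 6 h, and Bag3 lies below 0 in all 6 comparisons.

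Bag3 encodes a cochaperone that couples HSP70 and the small heat shock proteins to autophagy. In sham cortex it read 11.32, 11.27 and 11.50. It read 10.67, 11.05 and 10.83 at 6 h, 10.83, 10.31 and 10.58 at 24 h, and 11.12, 10.46 and 11.18 at 120 h. Every injured cortex array lay below every sham cortex array.

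The cortex difference of Bag3 at 24 h was -0.79 ± 0.25, 1.73-fold lower (adjusted p = 0.024). At 6 h it was -0.52 (adjusted p = 0.154) and at 120 h -0.45 (adjusted p = 0.333). The 24 h call was lost without sham cortex array 1 (-0.81, adjusted p = 0.057) or array 3 (-0.72, 0.0746). It was also lost without 24 h cortex array 2 (-0.66, 0.107) or array 3 (-0.79, 0.0562), and under median scaling (-0.61, 0.081).

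In medulla Bag3 read 10.74, 9.76 and 10.54 in sham, 9.71, 10.49 and 10.17 at 6 h, 9.86, 9.61 and 9.76 at 24 h, and 9.75, 10.21 and 10.28 at 120 h. All groups overlapped sham medulla, whose array 2 was low. At 24 h the difference was -0.60 (adjusted p = 0.069). It was -0.90 and passed without sham medulla array 2 (adjusted p = 0.00926). Sham medulla was 2.02-fold below sham cortex, by -1.02 ± 0.25 (adjusted p = 0.0463). This regional call did not pass in 17 of 34 alternatives, 15 of which left out 1 array, with adjusted p up to 0.357 and a difference of -0.72 without sham medulla array 2.

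Dnajb1 encodes HSP40, which delivers unfolded proteins to HSP70. Over all 24 arrays it ran from 10.82 to 12.16. Its largest difference from sham was 0.57 in medulla at 24 h (95% interval 0.07 to 1.08, adjusted p = 0.0762), where arrays at 12.07, 11.56 and 11.84 lay above sham at 11.50, 11.06 and 11.20. In cortex at 6 h the difference was 0.15 (95% interval -0.35 to 0.65, adjusted p = 0.712). Dnajb1 was called in none of the 14 comparisons.

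Hspd1 encodes HSP60, which with its partner Hspe1 (HSP10) folds proteins inside mitochondria. It was bright on all 24 arrays, from 13.40 to 14.64, and 3 cortex arrays lay within 0.5 of the highest value on the scale. In cortex at 6 h it read 13.95, 14.57 and 14.64, against 14.17, 14.03 and 13.87 in sham, and the groups overlapped because of array 1. The difference was 0.36 (95% interval -0.04 to 0.76, adjusted p = 0.195), and it was 0.58 and passed without 6 h cortex array 1 (adjusted p = 0.0416). Hspe1 rose at 6 h in both regions, by 1.29 ± 0.25 in cortex (adjusted p = 0.00165) and by 0.77 ± 0.25 in medulla (adjusted p = 0.0241). Hspd1 in medulla at 6 h differed by -0.18 (95% interval -0.58 to 0.21, adjusted p = 0.5). The difference between these partners was not tested.

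Hspa1b, an inducible HSP70 gene, had intensities from 49.6 to 83.5 before normalization, and its lowest detection p over 24 arrays was 0.108. Hsph1, an HSP110 gene that helps HSP70 exchange nucleotide, had intensities from 45 to 82.7 and a lowest detection p of 0.168. No array of any group stood above background for either gene, so neither is given a fold. Hspa1a and Hspa1b are near-identical in sequence, and the gene ID that the array gives for Hspa1b was not found in the reference table. The signal of that probe is therefore no measure of HSP70 induction as a whole.

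**Figure D3:**
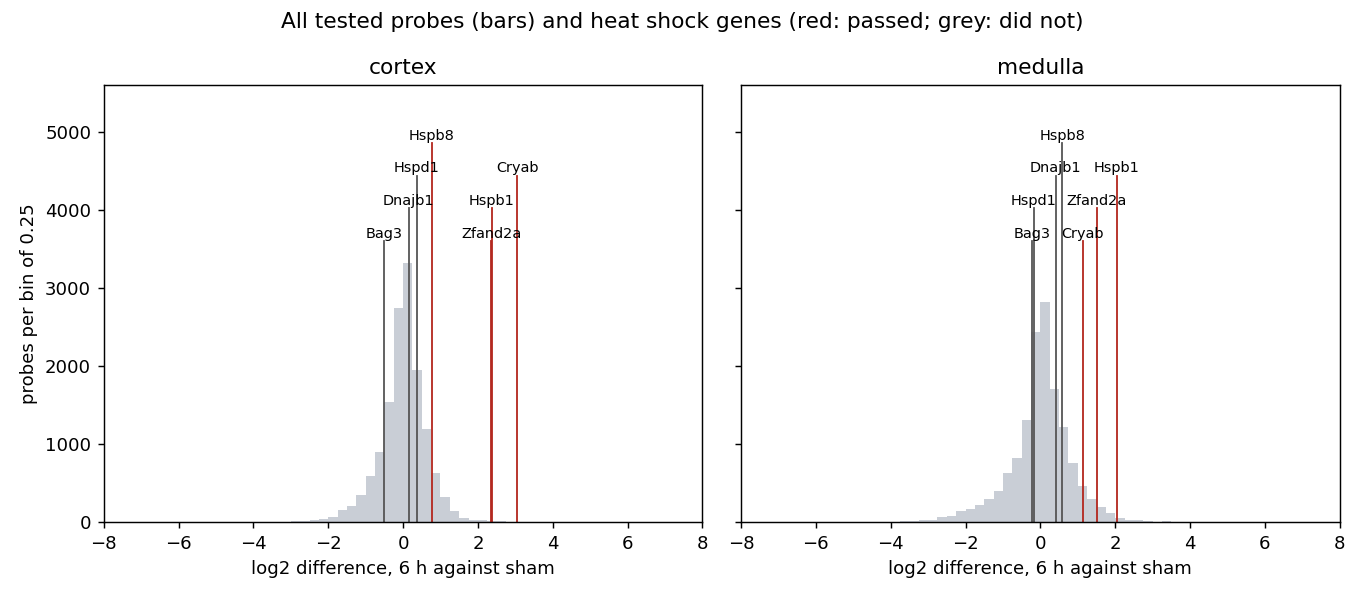
Number of probes (vertical axis) per bin of log2 difference between 6 h and sham (horizontal axis) for 14390 probes in cortex and in medulla, with the 7 tested heat shock genes as vertical lines (red where they passed, grey where they did not). Cryab, Hspb1 and Zfand2a lie at 3.05, 2.37 and 2.36 in the cortex panel and at 1.14, 2.05 and 1.51 in the medulla panel; line heights only separate the names.

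Other genes of the chaperone system were read from 7 lists holding 76 genes, of which 60 were tested. In cortex, 7 were higher and 2 lower at 6 h, 7 higher and 5 lower at 24 h, and 1 higher and 0 lower at 120 h. In medulla, 14 were higher and 5 lower at 6 h, 14 higher and 5 lower at 24 h, and 3 higher and 3 lower at 120 h. The shares lay on either side of those of all probes. In cortex, 11.7% were higher and 3.33% lower at 6 h (8.87% and 10.8% of all probes), 11.7% and 8.33% at 24 h (12.6% and 13.6%), and 1.67% and 0% at 120 h (2.45% and 3.2%). In medulla, 23.3% were higher and 8.33% lower at 6 h (17.3% and 16.6% of all probes) and the same shares at 24 h (17.2% and 15.5%), and 5% each way at 120 h (7.69% and 6.88%). Without sham medulla array 1, called list genes in medulla were 12 in place of 19 at 6 h, 10 in place of 19 at 24 h and 2 in place of 6 at 120 h. All probes called then fell too, to 12.3% higher and 12.8% lower at 6 h, 11.4% and 10.6% at 24 h, and 3.67% and 2.93% at 120 h.

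Among other HSP70 and HSP110 proteins and their cochaperones, 4 of 14 were higher and 0 lower in cortex at 6 h. These shares were 28.6% and 0%, beside 8.87% and 10.8% of all probes. In medulla at 6 h 7 were higher and 1 lower, 50% and 7.14%, beside 17.3% and 16.6%. Without sham medulla array 1, 4 were higher and 0 lower there, beside 12.3% and 12.8%. Hspa2, an HSP70 protein best known from testis, was higher than sham in all 6 comparisons, by 1.63 ± 0.40 to 2.37 ± 0.40, and higher in sham medulla than in sham cortex by 1.81 ± 0.40 (adjusted p = 0.0294). Hspa14, an HSP70 protein found on ribosomes, rose by 0.86 ± 0.19 in cortex at 6 h (adjusted p = 0.00368). It was also higher in cortex at 24 h (0.61, adjusted p = 0.0211) and in medulla at 6 h (0.60, adjusted p = 0.018). Hspbp1, a nucleotide exchange factor of HSP70, rose by 0.68 ± 0.16 in medulla at 6 h (adjusted p = 0.00305). It was also higher in cortex at 6 h (0.47, adjusted p = 0.0419) and in medulla at 24 h (0.47, adjusted p = 0.0304).

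Of 10 genes of the HSP90 machinery, 0 were called in cortex at 6 h, where 8.87% of all probes were higher and 10.8% lower. In medulla at 6 h 1 was higher, 10%, beside 17.3% of all probes. It was Sugt1, higher by 0.61 ± 0.15 (adjusted p = 0.00421). Sugt1 was also higher at 24 h, by 0.51 ± 0.15 in cortex (adjusted p = 0.0182) and 0.49 ± 0.15 in medulla (adjusted p = 0.0179). Cdc37, which brings kinases to HSP90, was higher by 0.52 ± 0.18 in medulla at 24 h (adjusted p = 0.0284), a call lost without sham medulla array 1 (0.38, 0.156), and Unc45a, a myosin chaperone, by 0.57 ± 0.19 in medulla at 120 h (adjusted p = 0.0474). Hsp90aa1, the inducible HSP90, differed by 0.70 ± 0.43 in cortex at 6 h (adjusted p = 0.266).

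Of 12 J-domain proteins, the class of Dnajb1, 2 were higher and 3 lower in cortex at 24 h, 16.7% and 25%, beside 12.6% and 13.6% of all probes. In medulla at 24 h 2 were higher and 2 lower, 16.7% each, beside 17.2% and 15.5%. Without sham medulla array 1, 1 was higher and 0 were lower there, beside 11.4% and 10.6% of all probes. Dnajb4 was lower by -1.30 ± 0.37 in cortex at 24 h (adjusted p = 0.0137) and Dnaja4 by -1.10 ± 0.35 in medulla at 6 h (adjusted p = 0.0214), the latter call being lost without sham medulla array 1 (-0.76, 0.137). Dnajc9, a histone chaperone, was higher by 1.09 ± 0.21 in medulla at 24 h (adjusted p = 0.000868).

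Of 8 mitochondrial chaperones and proteases, 1 was higher and 2 lower in cortex at 6 h, 12.5% and 25%, beside 8.87% and 10.8% of all probes. Clpx, the unfoldase of a mitochondrial protease, was lower by -1.62 ± 0.25 in cortex at 24 h (adjusted p = 0.000144). Dnaja3, a mitochondrial J-domain protein, was lower by -1.27 ± 0.22 in medulla at 24 h (adjusted p = 0.000308). Clpx and Dnaja3 were each called lower at 6 h and 24 h in both regions, by -0.97 to -1.62. They were also lower in medulla at 120 h, by -0.98 and -0.87. These 120 h calls were lost without sham medulla array 1 (-0.85, adjusted p = 0.0772, and -0.74, 0.0683). In cortex at 120 h neither was called. Of 7 TRiC subunits, which fold actin and tubulin, 3 were higher in medulla at 6 h and 4 at 24 h, 42.9% and 57.1%, beside 17.3% and 17.2% of all probes. Without sham medulla array 1 there were 2 at either time, beside 12.3% and 11.4% of all probes higher. In cortex 1 was higher at 6 h, 14.3%, and 0 at 24 h, beside 8.87% and 12.6% of all probes. In any of these 4 comparisons 0 were lower. At 6 h Cct7 rose by 0.86 ± 0.20 (adjusted p = 0.00263), Cct3 by 0.82 ± 0.17 (adjusted p = 0.00152) and Cct4 by 0.53 ± 0.16 (adjusted p = 0.0165), the last being lost without sham medulla array 1 (0.42, 0.09).

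Of 3 other small heat shock proteins tested, 1 was called in medulla at 6 h, Hspb7, higher by 0.57 ± 0.14 (adjusted p = 0.00498). This was 33.3%, beside 17.3% of all probes higher. Hspb2 was higher in sham medulla than in sham cortex by 1.90 ± 0.45 (adjusted p = 0.0376), beside 0.438% of all probes. Whether that call holds without sham medulla array 1 is not given here. Of 6 heat shock factors and regulators tested, 1 was called at any time against sham. It was Hsf2, lower by -0.67 ± 0.22 in medulla at 6 h (adjusted p = 0.0227), where 16.6% of all probes were lower. The list held 8 genes, of which 6 had a probe. Hsf1, the gene of heat shock factor 1, had no probe under its symbol and was not tested.

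Across the 24 arrays, which share groups and so are not independent points, the members' levels were correlated to different degrees. Pearson's r was 0.67 between Cryab and Hspb1, 0.70 between Hspb1 and Zfand2a, and -0.66 between Cryab and Bag3. Hspb8 and its partner Bag3 had an r of 0.53. Hspb8 and Cryab had an r of -0.22. The genes most like Cryab over the 24 arrays were Hoxb7 (r = 0.88), Cd59b (0.84), Hspa14 (0.83), Epcam (0.82) and Cldn16 (0.81). The corresponding list for Hspa1b is not given, since its probe was at background. A like search added for Zfand2a after its values had been seen gave Tpm3 (r = 0.92), Dcaf10 (0.90), Krt8 (0.89), Krt20 (0.88) and Cimap2 (0.88).

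Markers of cell types moved in the same samples. In bulk tissue, fewer cells of a type, less RNA per cell and more or less cortex in a medulla sample cannot be told apart. The 11 tested proximal tubule markers had a mean of 12.34 to 12.65 per array in sham cortex and 11.34 to 11.68 in cortex at 6 h, where 3 were lower and 0 higher than sham. In medulla the mean was 10.25 to 12.29 in sham and 7.43 to 8.91 at 6 h, with 9 of 11 lower. It was 7.25 to 8.94 in medulla at 24 h and 9.10 to 9.97 at 120 h. The mean of 4 glomerulus markers was 9.89 to 10.13 in sham cortex, 7.70 to 9.18 in sham medulla and 7.11 to 7.32 in medulla at 6 h. Of these 4, 3 were lower and 0 higher in medulla at 6 h than in sham medulla. A list for osmolyte handling in the inner medulla held 9 genes, of which 7 were tested. They were Akr1b1, Akr1b3, Slc6a6, Slc6a12, Slc5a3, Slc14a2, Nfat5, Aqp1 and S100a4. With Aqp1 and S100a4 the list was not confined to osmolyte handling. Of the 7 tested markers, 4 were higher and 1 lower in medulla at 6 h. Their mean was 8.80 to 10.73 per array in sham medulla and 10.74 to 11.03 at 6 h. In cortex at 6 h 0 of these 7 were called, with a mean of 8.49 to 9.04 against 8.10 to 8.92 in sham. Over all probes at 6 h, 17.3% were higher and 16.6% lower in medulla, and 8.87% and 10.8% in cortex. Counts of markers were not recomputed without sham medulla array 1, whose osmolyte mean of 8.80 was the lowest in sham medulla.

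Smooth muscle cells also express small heat shock proteins. Of 6 smooth muscle markers, 1 was higher in cortex at 6 h and 3 at 24 h, beside 8.87% and 12.6% of all probes. Their shares were 16.7% and 50%, with 0 lower at either time. Cortex means per array were 6.51 to 6.83 in sham, 6.84 to 7.46 at 6 h and 7.28 to 7.61 at 24 h. In medulla at 6 h 2 were higher and 1 lower, beside 17.3% and 16.6% of all probes. At 24 h in medulla 1 was higher and 0 lower, beside 17.2% and 15.5%. Of 7 leukocyte markers, 2 were higher in cortex at 6 h and 4 in medulla at 6 h. These shares were 28.6% and 57.1%, beside 8.87% and 17.3% of all probes. Their mean was 5.77 to 6.25 in sham cortex and 6.64 to 6.86 in cortex at 6 h, and 6.10 to 6.19 in sham medulla and 7.12 to 7.60 in medulla at 6 h. Of 4 adipocyte markers, 2 were higher in sham medulla than in sham cortex, beside 0.438% of all probes. The means were 7.53 to 9.75 in sham medulla and 6.02 to 6.67 in sham cortex. In injured medulla 1 of 4 was lower at 6 h and 2 of 4 at 24 h, with 0 higher. Of all probes 16.6% and 15.5% were lower at these times. In cortex the adipocyte means were 7.05 to 7.67 at 6 h and 7.12 to 7.66 at 24 h, above sham, with median differences of 1.02 and 1.13 and 0 of 4 called. The part of these markers in the changes of the heat shock genes was not tested.

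**Figure D4:**
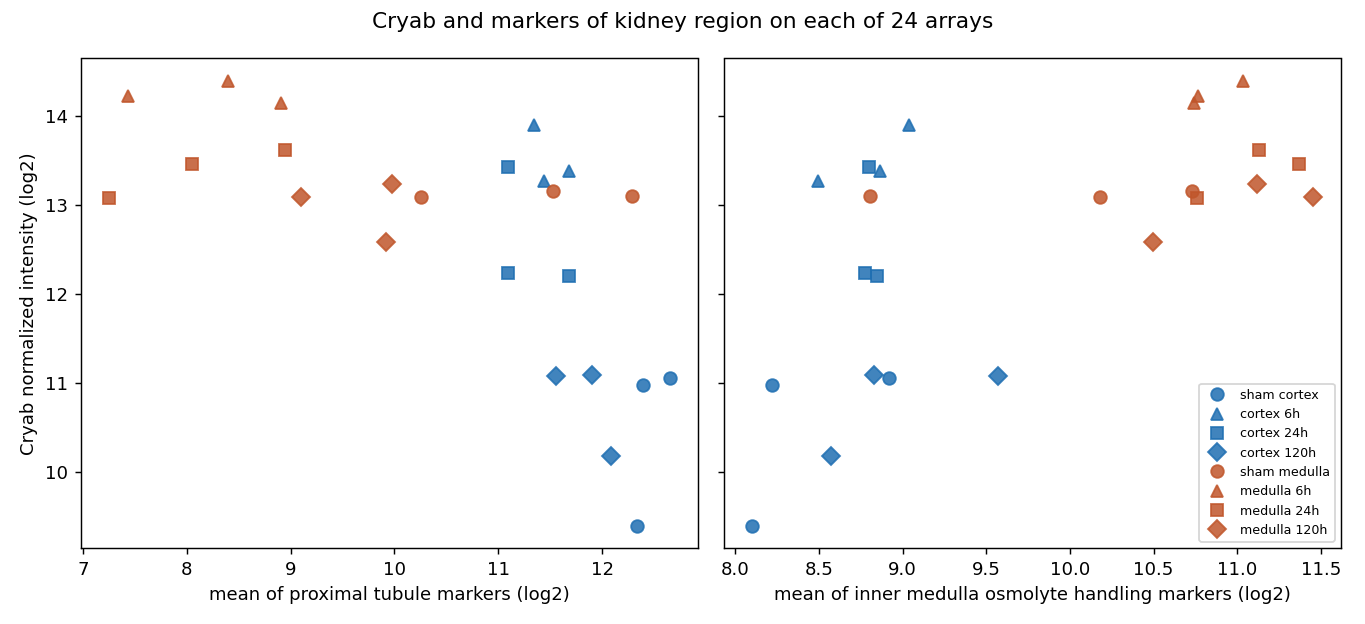
Cryab (normalized log2 intensity, vertical axis) on each of 24 arrays against the mean of 11 proximal tubule markers (left) and of 7 inner medulla osmolyte markers (right), with cortex in blue, medulla in orange and the time after ischemia by symbol. Cortex arrays at 6 h stand at 13.28 to 13.91 for Cryab, with proximal tubule means of 11.34 to 11.68, below sham cortex at 12.34 to 12.65, and osmolyte means of 8.49 to 9.04, overlapping sham cortex at 8.10 to 8.92.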

How the data were processed

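Probe signals were intensity values per probe and array, not normalized, per the file headers. The deposited detection value, a fraction headed as a p-value, rose with intensity on every array (Spearman's rho at least 0.982) and was read as 1 minus p. The authors' series values in log2 were used as an alternative; their sorted values are shared by all arrays (largest spread 0.0102) with a median of 6.72, and the sources used here do not give how they were made or which scanner software was used.

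Intensities were normalized by neqc (limma 3.58.1, R 4.3.3), with background from the detection p, an offset of 16, quantile normalization and log2. Of 22523 probes, the 14390 detected (p under 0.05) on 3 arrays or more were kept. A single model with 8 group means was fitted to 24 arrays with lmFit and eBayes (16 residual and 3.34 prior degrees of freedom), and p-values were adjusted over all kept probes within each of 14 comparisons. An exact permutation test of 3 against 3 arrays could not give a two-sided p below 0.1 and was not used. The number of arrays limits the precision. Alternatives changed the background correction, normalization, filter, arrays fitted, array weights and blocks.

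Members, gene lists and tests were chosen with earlier results of these data known. Genes were named by rule: every member with a probe, and per chaperone list the 3 largest called changes from sham. Hspa2, Hspe1 and Hsp90aa1 were followed into other comparisons after their values were seen. Symbols came from the platform's probe annotation, which can be old; 13793 probes had 1 symbol and 8730 had none or several. Coordinates and promoters are from RefSeq, GRCr8.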

Additional observations from a re-analysis of the deposited data

How the results depend on the processing

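Each result was recomputed in 34 alternatives, 24 of which left out 1 array. Of 98 differences of members, 14 were called, and 5 of these stayed called in every alternative, namely Cryab in cortex at 6 h and 24 h, Zfand2a at 6 h in both regions and Hspb1 in medulla at 6 h. No called difference changed sign, 24 uncalled ones did in at least 1 alternative, and 75 were called in none.

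With only the groups compared in the fit, which leaves fewer arrays to estimate the spread, members called were 2 in place of 4 in cortex at 6 h, 1 in place of 0 in medulla at 24 h, 0 in place of 2 between the sham regions, and 0 in place of 1 in either step in cortex. Median scaling gave 1 in place of 3 in cortex at 24 h, and no filter gave 1 in place of 2 between the sham regions. Array weights gave 3 in medulla at 24 h, 1 in medulla at 120 h and 1 for the difference of responses at 24 h, each in place of 0. Leaving out 1 array gave 1 to 3 in cortex at 24 h, 0 to 1 in medulla at 24 h, 1 to 2 between the sham regions and 0 to 1 from 24 h to 120 h in cortex. In cortex at 24 h it was 1 without sham cortex array 1, 24 h array 2 or 24 h array 3. In medulla at 24 h it was 1 without sham medulla array 2 or 6 h cortex array 2.

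Of the 60 other chaperone genes, called ones in cortex were 9 at 6 h (2 with only the groups compared, 5 to 11 leaving out 1 array), 12 at 24 h (22 with median scaling, 21 with array weights, 7 to 13 leaving out 1 array) and 1 at 120 h (2 with the larger offset, without background correction and with the deposited series values, 5 with array weights, 0 to 3 leaving out 1 array). In medulla they were 19 at 6 h (6 with only the groups compared, 12 to 20 leaving out 1 array), 19 at 24 h (29 with array weights, 8 to 20 leaving out 1 array) and 6 at 120 h (19 with array weights, 2 to 6 leaving out 1 array). The cause of these shifts in the counts was not tested.

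Replicate numbers are shared between groups, but the labels do not say what they mark. Between groups compared directly, deviations of same-numbered arrays correlated at -0.473 to 0.403. In none of these comparisons were all 3 pairs over 0.1, so the numbers were not taken as pairs. Cortex and medulla arrays of 24 h are an exception, at 0.262 to 0.398. They meet in the difference of responses at 24 h, which was fitted as unpaired. With a replicate block, Hspb1 in cortex at 24 h gained a call (1.22, adjusted p = 0.0466), which made 4 members in place of 3, and no other call of a member changed in any comparison. Each member had 1 probe and no slide was named, so those alternatives were not run. Signal near background limits Hspa1b and Hsph1, and signal near the top of the scale limits Hspd1 and Cryab.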
